A study of Homo sapiens with 6 samples.

Results

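KCP, BMP2, BMP4, BMP7, GREM1, ID1, ID2, ID3, SMAD6 and SMAD7 are 10 of the 35993 genes whose read counts were measured by RNA-seq in MIA PaCa-2 cells. They comprise an extracellular modulator of BMP signalling, its ligands and one antagonist, and genes that SMAD proteins switch on when the pathway is active. With earlier results of these same libraries known, the members were chosen by their read counts in untreated and treated cells, so their values in this comparison are given as a description with no test. The other genes of the pathway, 89 in 9 lists by role, were listed by their known function, also with earlier results of these libraries known, and are given with their tests.

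MIA PaCa-2 is an established human line from a pancreatic carcinoma. There were 3 untreated libraries and 3 libraries from cells that received 4 µM rhCYGB for 48 h. rhCYGB is His-tagged recombinant human cytoglobin, a heme protein, which the authors made in E. coli. All cells were grown in DMEM with 10% FBS and 2.5% horse serum and were moved to DMEM with 1% FBS before treatment, and no group given vehicle or another protein was analysed here.

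Bone morphogenetic proteins (BMPs) are secreted dimers of the TGF-β family that bind type I and type II serine/threonine kinase receptors. The receptors phosphorylate SMAD1, SMAD5 and SMAD9, which join SMAD4, enter the nucleus and raise ID1, ID2, ID3, SMAD6 and SMAD7. ID proteins bind E proteins and keep them from DNA, while SMAD6 and SMAD7 are inhibitory SMADs that feed back on the receptors. KCP (kielin/chordin-like protein) carries chordin-type cysteine-rich repeats and is known to strengthen BMP binding to its receptor and to weaken TGF-β signalling, and the pathway is of interest in the pancreas because ductal tumours often lose SMAD4.

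The promoters of KCP, of the ID genes and of SMAD6 are shown, KCP as the member furthest from its untreated level, the ID genes because they were lower together, and SMAD6 because it held a SMAD palindrome. Each line holds the 250 bases before the transcription start in RefSeq, in GRCh38.p14. They lie at chr7:128910710-128910959 on the minus strand for KCP, chr20:31605039-31605288 on the plus strand for ID1, chr2:8681806-8682055 on the plus strand for ID2, chr1:23559502-23559751 on the minus strand for ID3 and chr15:66701986-66702235 on the plus strand for SMAD6. Capitals mark GTCTAGAC, a palindrome made of the SMAD-binding letters GTCT and their reverse complement.
KCP: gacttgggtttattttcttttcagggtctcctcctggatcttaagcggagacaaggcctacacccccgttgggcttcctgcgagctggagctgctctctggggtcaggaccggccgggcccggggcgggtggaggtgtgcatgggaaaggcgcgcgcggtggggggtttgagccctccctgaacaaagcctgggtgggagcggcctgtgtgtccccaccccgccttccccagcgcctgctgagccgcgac
ID1: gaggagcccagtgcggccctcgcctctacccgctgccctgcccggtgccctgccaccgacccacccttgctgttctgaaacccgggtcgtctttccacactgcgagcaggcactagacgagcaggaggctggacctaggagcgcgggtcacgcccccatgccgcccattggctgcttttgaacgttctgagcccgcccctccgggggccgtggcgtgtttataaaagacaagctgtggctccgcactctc
ID2: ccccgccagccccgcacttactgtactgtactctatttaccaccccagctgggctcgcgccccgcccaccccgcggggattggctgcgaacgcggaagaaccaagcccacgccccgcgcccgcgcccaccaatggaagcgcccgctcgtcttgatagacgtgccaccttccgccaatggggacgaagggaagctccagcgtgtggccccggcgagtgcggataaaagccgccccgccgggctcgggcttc
ID3: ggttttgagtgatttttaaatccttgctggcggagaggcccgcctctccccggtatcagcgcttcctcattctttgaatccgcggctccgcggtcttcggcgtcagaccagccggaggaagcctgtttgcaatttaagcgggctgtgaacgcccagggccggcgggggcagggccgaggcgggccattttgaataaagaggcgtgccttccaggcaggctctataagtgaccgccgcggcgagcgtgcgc
SMAD6: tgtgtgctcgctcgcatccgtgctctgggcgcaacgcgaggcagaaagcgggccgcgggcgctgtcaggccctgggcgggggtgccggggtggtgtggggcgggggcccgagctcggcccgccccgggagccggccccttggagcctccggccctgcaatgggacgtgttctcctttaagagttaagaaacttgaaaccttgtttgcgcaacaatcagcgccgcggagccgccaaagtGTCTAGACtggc

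RefSeq listed 13 promoters for 8 of the members and none for BMP2 or BMP7. GTCTAGAC, searched on both strands, stood in 1 of the 13, 12 bases before the SMAD6 start, and in 64 of all 35116 promoters of the same length (0.182%). GGCGCC, a sequence that BMP-activated SMADs bind, was in 2 of the 13 promoters, 1 of BMP4 and 1 of GREM1, and in 16.4% of all promoters. TGATGNAAT, the site of CEBP and ATF4 dimers, and TGACGTCA, the CREB site, were in no member promoter and in 0.888% and 1.65% of all promoters. A match is a description of these letters and does not show that a factor is bound. The printed promoters were rich in G and C, with 66.4% for KCP, 66% for ID1, 69.2% for ID2, 62% for ID3 and 68% for SMAD6 against a median of 58% over all promoters. The ID2 promoter held 29 CpG dinucleotides and that of KCP 16, against a median of 11.

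Total read counts on genes ranged from 34838399 to 42271299 per library. Levels are given as CPM, counts per 1000000 reads on genes after scaling library sizes with TMM factors, which lay between 0.932 and 1.06. At these depths 3 counts, taken as the floor, correspond to 0.0669 to 0.0902 CPM, and floors and intervals cover counting error only. Replicates of a group differed by more than sampling noise in every pair. The paper describes its experiments in general as repeated and independent, but neither it nor the labels says which cultures the RNA-seq libraries came from. If they shared a culture, p-values measure only the technical spread between these libraries. In bulk RNA, fewer cells of a type and less RNA per cell cannot be told apart. Of the lineage markers, KRT8, KRT18, KRT19 and VIM were abundant, EPCAM, CDKN2A (known to be deleted in this line), PTPRC, PECAM1, PRSS1, CPA1 and INS had 0 counts in all 6 libraries, and CDH1 had 2 counts in 1 library. The epithelial keratin KRT8 went from 2085 ± 77.8 to 1190 ± 41.1 CPM and the mesenchymal VIM from 8013 ± 90.4 to 11744 ± 274 CPM (SD, n = 3 each). KRT19 was also lower, at 260 ± 4.92 and 171 ± 9.83 CPM, while KRT18 overlapped between the groups at 1648 ± 59.6 and 1694 ± 55.7 CPM. Of the other mesenchymal markers, ACTA2 overlapped at 5.61 ± 0.370 and 5.30 ± 0.122 CPM, and COL1A1 had 6, 10 and 6 counts untreated and 0 in each treated library. The part of these differences in the results below was not tested.

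Of the 10 members, 7 had enough counts to enter the fit of edgeR over 14728 genes. In size, KCP and SMAD7 were higher and ID3 and SMAD6 lower by 2-fold or more. The rule of 2-fold and a Benjamini-Hochberg adjusted p under 0.05 took 27.1% of all genes, 12.4% higher and 14.7% lower after rhCYGB. At any fold 77.6% of all genes passed the adjusted p. The groups did not overlap in CPM for 7 of 7 tested members, as for 79.5% of all genes. Nothing is read from these counts, because this comparison chose the members. The median log2 fold change was -0.32 over the 7 members and -0.0046 over all genes tested.

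KCP was the member that stood furthest from its untreated level (gene ID 375616, chromosome 7, 128516919 to 128550763 in the deposited table, whose build is not named). It had 0, 4 and 0 counts in untreated libraries 1, 2 and 3 and 221, 203 and 215 counts in the 3 rhCYGB libraries. All treated libraries were thus far above all untreated ones, at 5.95, 6.10 and 5.83 CPM against 0, 0.0893 and 0. The mean went from 0.0298 ± 0.0515 to 5.96 ± 0.135 CPM (SD, n = 3 each). Over the pooled counts, 4 against 639, the rate was 183 times as high, with an exact 95% interval from 71.1 to 673. That interval covers counting error and not the spread between libraries. The fitted log2 fold change was 7.38 (SE 0.40), rank 22 by size among all genes tested. It rests on the 4 counts of untreated library 2. Without that library the untreated group held 0 counts and the difference was at least 155-fold against a floor of 3 counts over the group. KCP entered the fit only through its treated libraries, since no untreated library reached 10 counts.

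Both listed KCP transcripts were present after rhCYGB. The longer, NM_001366122, had 178, 185 and 164 counts after rhCYGB and 0 in each untreated library. The shorter, NM_199349, had 43, 18 and 51 counts after rhCYGB, and it held all 4 counts of untreated library 2. The longer form took 82.5% of the KCP counts of treated cells, between 76.3% and 91.1% in single libraries. The split rests on the authors' assignment of reads to overlapping isoforms.

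The BMP ligands were dominated by BMP7, a ligand known from kidney and skeleton (gene ID 655, chromosome 20, 55743809 to 55841697). BMP7 had 1210, 1412 and 1308 counts untreated and 1268, 1155 and 1398 after rhCYGB, or 32.5, 31.5 and 32.1 CPM against 34.1, 34.7 and 37.9 CPM. The groups did not overlap on this scale, yet the fitted log2 difference was only 0.15 (SE 0.06), and it turned to -0.012 with total counts in place of TMM and to -0.012 and -0.013 in FPKM, fragment counts divided by transcript length and sequencing depth, with 1 or 0.1 added. Its mean of 7.42 ± 0.121 FPKM untreated stood beside 7.36 ± 0.544 after rhCYGB. No direction is given for BMP7.

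BMP2, a ligand of bone and heart formation, had 0 counts in all untreated libraries and in rhCYGB libraries 1 and 2, and 7 counts, 0.190 CPM, in rhCYGB library 3. BMP4, its close relative, and GREM1, the secreted antagonist gremlin that binds both, had 0 counts in all 6 libraries. These 3 members were therefore not tested. At this depth BMP4 and GREM1 were not detectable in either group, and the only member ligand well above the floor was BMP7.

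The ID genes were all lower after rhCYGB, by unequal amounts. ID3 (gene ID 3399, chromosome 1, 23884417 to 23885992) had 56.2, 50.9 and 51.1 CPM in the untreated libraries and 15.7, 14.1 and 15.5 CPM after rhCYGB. The highest treated library was thus well under the lowest untreated one, and the mean went from 52.7 ± 3.00 to 15.1 ± 0.875 CPM, 3.48-fold lower (log2 fold change -1.80, SE 0.06). ID2 (gene ID 3398, chromosome 2, 8822186 to 8824591) had 5.64, 5.04 and 6.30 CPM against 2.72, 3.49 and 2.98 CPM. Its groups did not overlap either, with means of 5.66 ± 0.630 and 3.06 ± 0.390 CPM, 1.85-fold lower (log2 -0.89, SE 0.15). ID1 (gene ID 3397, chromosome 20, 30193092 to 30194313) had 64.2, 65.8 and 65.8 CPM against 51.3, 54.1 and 51.2 CPM. That was 1.25-fold lower (log2 -0.32, SE 0.05), a small difference for which the groups were nonetheless apart. All 3 kept this direction under every alternative run, with ID1 between -0.50 and -0.30, ID2 between -1.05 and -0.78 and ID3 between -1.97 and -1.76.

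Per length, ID1 and ID3 were close in untreated cells, at 59.6 and 51.7 FPKM, while ID2 was at 4.06 FPKM. After rhCYGB ID1 was at 42.1, ID3 at 13.2 and ID2 at 1.95 FPKM, so the order stayed and the gap between ID1 and ID3 widened. Below them in untreated cells came SMAD6 at 0.441, SMAD7 at 0.102 and KCP at 0.00825 FPKM. BMP7 lay between ID3 and ID2. ID1 has 2 listed isoforms, of which NM_002165 took 81.4% of the untreated and 76.9% of the rhCYGB counts. The shares in single libraries ran from 79.6% to 82.8% untreated and from 73.7% to 79.0% after rhCYGB, so every untreated share was above every treated one. The minor isoform NM_181353 had 487, 542 and 462 counts untreated and 417, 377 and 497 after rhCYGB, which overlap.

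The inhibitory SMADs went in opposite directions. SMAD6, which acts mainly on BMP receptors (gene ID 4091, chromosome 15, 66994574 to 67075187), had 48, 103 and 76 counts untreated and 11, 7 and 26 after rhCYGB. The means were 1.82 ± 0.507 and 0.404 ± 0.264 CPM, and the log2 fold change was -2.15 (SE 0.38). Pooled counts gave a rate ratio of 0.222 with an exact 95% interval from 0.157 to 0.308. Here and for SMAD7 the interval covers counting error and not the spread between libraries. SMAD7, which acts on both TGF-β and BMP receptors (gene ID 4092, chromosome 18, 46446223 to 46477081), had 14, 22 and 8 counts against 50, 58 and 55. It went from 0.354 ± 0.149 to 1.53 ± 0.201 CPM, with a log2 fold change of 2.09 (SE 0.34) and a rate ratio of 4.24 (exact 95% interval 3.02 to 6.06). In both genes the groups did not overlap, but both were low, and the values rest on at most 103 counts per library. Without rhCYGB library 3 SMAD6 was at -2.82. Each reached 10 counts in all 3 libraries only in the group where it was higher, SMAD6 in the untreated and SMAD7 in the rhCYGB libraries.

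**Figure D1:**
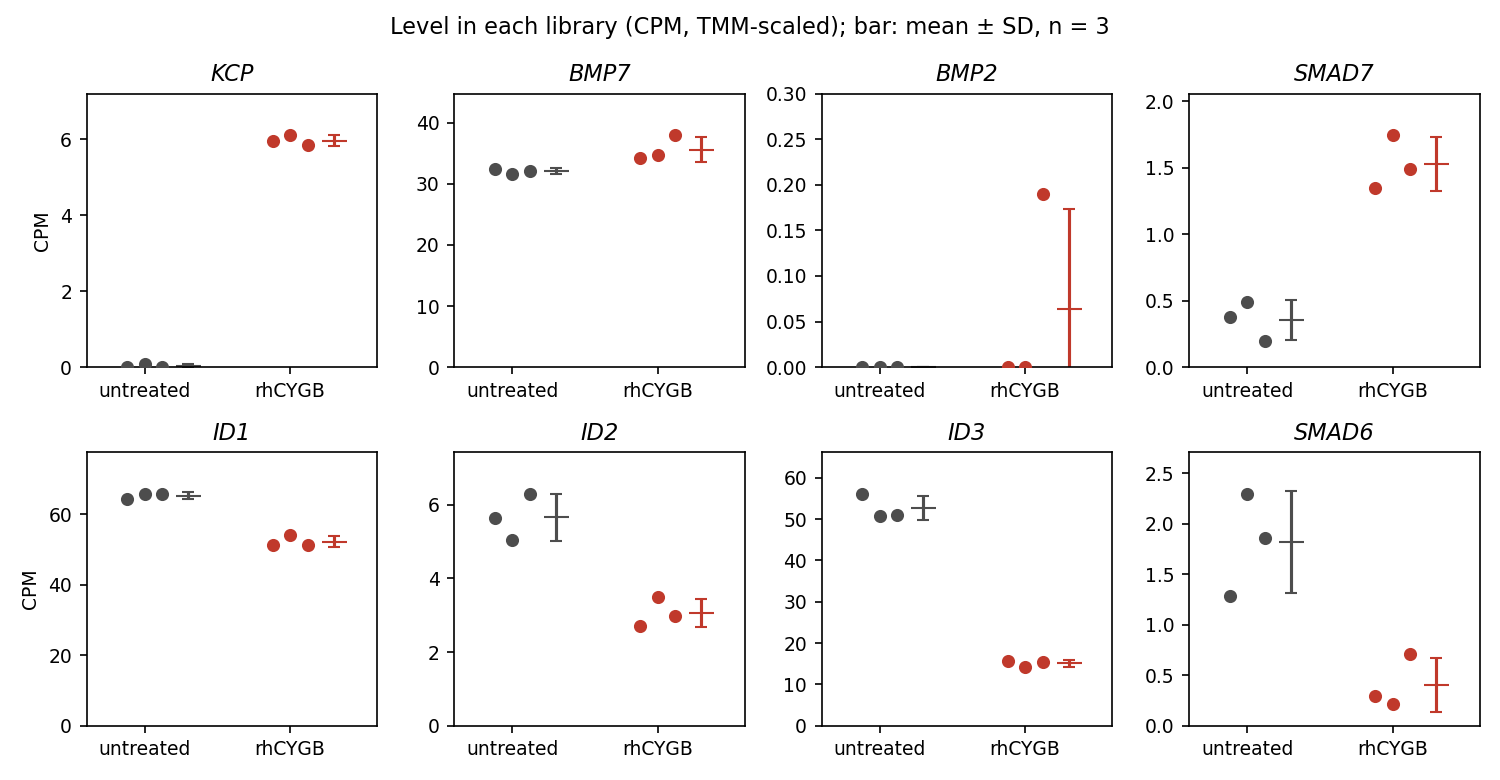
Level of 8 members in each library (vertical axis, CPM on a linear scale from 0, its own range in each panel), untreated in grey and rhCYGB in red; points are libraries and the bar beside them is the mean ± SD of 3. KCP lay at or near 0 in the untreated libraries and between 5.83 and 6.10 CPM after rhCYGB, ID1, ID2, ID3 and SMAD6 were lower in every treated library, and BMP2 had counts in 1 library.

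The isoforms of SMAD6 differed entirely between the groups. The protein-coding NM_005585 held all 48, 103 and 76 counts of the untreated libraries and 0 of the treated ones. The noncoding NR_027654 held all 11, 7 and 26 counts after rhCYGB and 0 untreated. For SMAD7, NM_005904 had 14, 22 and 7 counts untreated and 38, 13 and 55 after rhCYGB, and NM_001190823 had 0, 0 and 1 against 12, 45 and 0. The SMAD7 split was thus uneven among the treated libraries themselves: NM_001190823 took most of the counts in rhCYGB library 2 and none in library 3. These are few reads divided among overlapping models, and how far the division reflects the transcripts present was not tested.

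**Figure D2:**
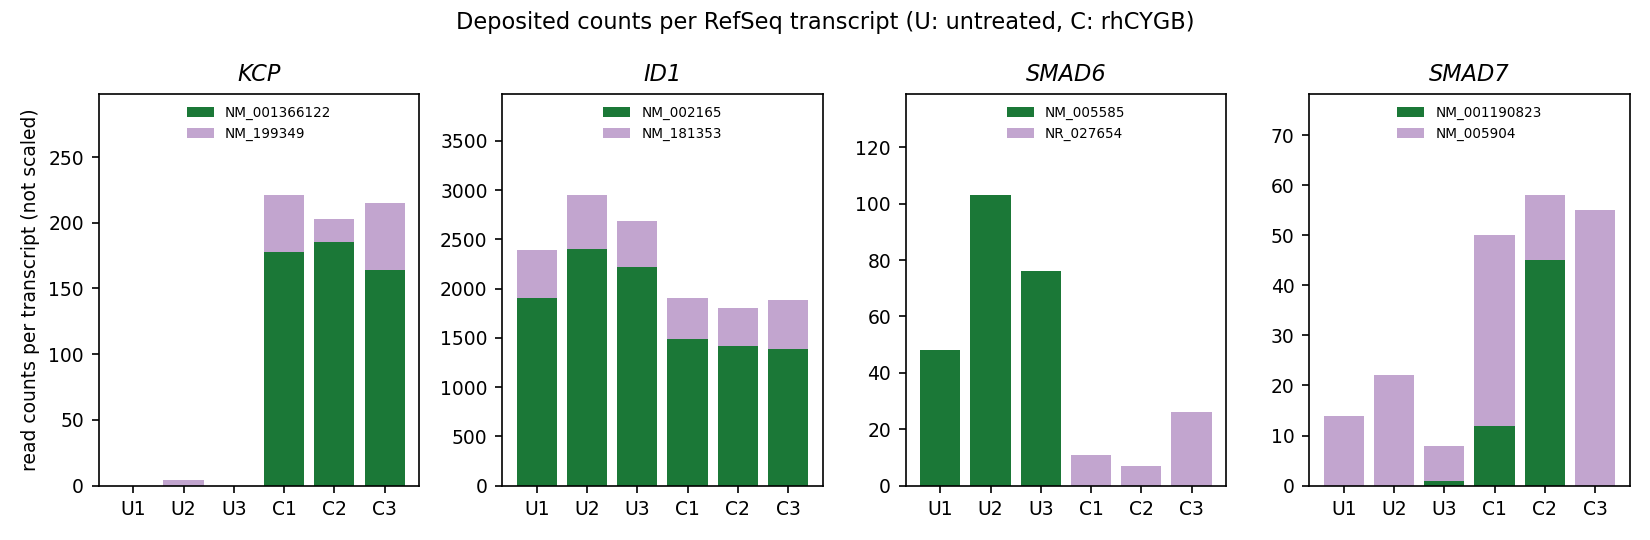
Deposited read counts per transcript (vertical axis, not scaled for depth, stacked by isoform) for KCP, ID1, SMAD6 and SMAD7 in untreated (U) and rhCYGB (C) libraries 1 to 3. SMAD6 counts were all on the coding isoform in untreated cells and all on the noncoding one after rhCYGB, while the ID1 shares changed little.

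The remaining pathway genes show what surrounded these members. Of the 89, all were in the table, 18 had 0 counts in all libraries and 61 were tested. By the rule of 2-fold and adjusted p under 0.05, 13 rose and 6 fell, 31.1% of those tested beside 27.1% of all genes. With total counts in place of TMM, 10 rose and 8 fell (1395 higher and 2719 lower over all genes, against 1833 and 2165). That scaling moved the median log2 fold change of all genes to -0.17. At any fold 31 were higher, 23 were lower and 7 did not pass, and their median log2 fold change was 0.17. Over all genes tested, 39% were higher and 38.6% lower at any fold. With total counts 26 of the 61 were higher and 28 lower at any fold, so which side held more depends on the scaling. All p-values below are from edgeR's quasi-likelihood test, two-sided, with Benjamini-Hochberg adjustment over 14728 genes.

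Among 5 tested further ligands, BMP6, an iron-regulating ligand, rose from 1.01 ± 0.320 to 3.87 ± 0.227 CPM (log2 fold change 1.92, SE 0.23, edgeR adjusted p = 1.45e-06). None of the other 4 passed both criteria. Of the 7 tested extracellular BMP-binding proteins, the group to which KCP belongs by function, none rose 2-fold and 2 fell. Over all genes 12.4% rose and 14.7% fell by that rule. FSTL1, a follistatin-like glycoprotein, fell from 16.9 ± 1.86 to 4.70 ± 0.10 CPM (log2 -1.85, SE 0.10, edgeR adjusted p = 2.09e-10). CRIM1, a membrane protein with the same kind of cysteine-rich repeats as KCP, fell from 172 ± 3.15 to 83.7 ± 2.97 CPM (log2 -1.04, SE 0.04, edgeR adjusted p = 2.39e-12). At any fold 3 of the 7 were higher and 4 lower, with a median of -0.42. All 5 tested proteases that process BMPs or chordin were lower at any fold (38.6% of all genes), with a median of -0.86, and 2 of them fell 2-fold, or 3 with total counts. BMP1, which cleaves chordin, fell from 41.3 ± 2.35 to 18.8 ± 0.638 CPM (log2 -1.13, SE 0.06, edgeR adjusted p = 1.21e-10). Its relative TLL2, named after its values were seen, was below 1 CPM in both groups and fell from 0.771 ± 0.147 to 0.226 ± 0.0643 CPM (log2 -1.77, SE 0.39, edgeR adjusted p = 0.000745).

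Among the 11 tested receptors and co-receptors 3 rose and none fell 2-fold, beside 12.4% and 14.7% of all genes. With total counts 3 rose and 1 fell. The type I receptor ACVR1 rose from 10.3 ± 1.16 to 27.8 ± 2.39 CPM (log2 1.43, SE 0.09, edgeR adjusted p = 6.84e-10). The type II receptor ACVR2B rose from 3.84 ± 0.0909 to 12.2 ± 0.378 CPM (log2 1.67, SE 0.10, edgeR adjusted p = 6.74e-10). BMPR1B, a type I receptor, rose from 1.86 ± 0.534 to 4.39 ± 0.243 CPM (log2 1.24, SE 0.20, edgeR adjusted p = 4.81e-05). BMPR1A and BMPR2 differed less or not beyond the spread. BMPR1A was at 32.5 ± 1.78 and 25.4 ± 2.12 CPM (log2 -0.35, edgeR adjusted p = 0.000205), and BMPR2, at 33.5 ± 2.15 and 32.8 ± 3.00 CPM, did not pass (log2 -0.03, SE 0.07, edgeR adjusted p = 0.688). Of the co-receptors, RGMB was higher by 0.33 and NEO1 and ENG were lower, by a log2 fold change of -0.59 and -0.51. ACVR2A at 0.41, RGMA at -0.95 and the decoy receptor BAMBI at 0.33 passed with edgeR adjusted p values of 0.0237, 0.0363 and 0.0465. ACVR2A did not pass without untreated library 1 or 2 or rhCYGB library 3 (edgeR adjusted p between 0.0867 and 0.108). RGMA did not pass without untreated library 1 or 2 or rhCYGB library 1 or 3 (0.0952 to 0.181), and BAMBI passed only when rhCYGB library 2 was the one left out (0.0528 to 0.11 without any other).

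The receptor SMADs did not share a direction. SMAD1, which carries BMP signals, stood at 16.2 ± 0.185 and 16.1 ± 0.429 CPM and did not pass (log2 -0.0072, edgeR adjusted p = 0.928). SMAD5, of the same branch, was at 81.1 ± 0.381 and 68.1 ± 3.88 CPM (log2 -0.25, edgeR adjusted p = 0.000157), and the low SMAD9 was at 1.44 ± 0.226 and 2.32 ± 0.472 CPM (log2 0.69, edgeR adjusted p = 0.013), a call lost without untreated library 2 (0.0607) or rhCYGB library 2 (0.0505). SMAD3, which carries TGF-β signals, fell from 124 ± 2.28 to 50.4 ± 2.14 CPM (log2 -1.30, SE 0.04, edgeR adjusted p = 6.61e-13). Its partner SMAD2 rose from 94.2 ± 2.26 to 186 ± 8.75 CPM (log2 0.98, SE 0.04, edgeR adjusted p = 1.02e-11), just under 2-fold (1.00 without untreated library 2 and 1.02 without rhCYGB library 2). The shared SMAD4 rose from 65.6 ± 1.44 to 94.3 ± 5.81 CPM (log2 0.53, SE 0.05, edgeR adjusted p = 9.19e-08).

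Of 13 tested intracellular regulators, 3 rose 2-fold and none fell, beside 12.4% and 14.7% of all genes. At any fold 7 were higher, 3 were lower and 3 did not pass. With total counts 7 were higher and 6 lower at any fold. TGIF1, a corepressor of SMAD2 and SMAD3 targets, rose from 62.7 ± 4.28 to 238 ± 9.67 CPM (log2 1.93, SE 0.05, edgeR adjusted p = 3.89e-14). SKIL (SnoN), another SMAD corepressor, rose from 7.43 ± 0.760 to 21.9 ± 1.24 CPM (log2 1.56, SE 0.09, edgeR adjusted p = 3.1e-10). The deubiquitinase USP15 rose from 30.0 ± 0.360 to 62.3 ± 6.08 CPM (log2 1.05, SE 0.06, edgeR adjusted p = 5.71e-10). USP15 was at 0.99, under 2-fold, without rhCYGB library 1, and with total counts 2 of the 13 rose 2-fold.

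Of 12 other genes known to respond to BMPs, 7 were tested. The rest had at most 10 counts in any library, and no direction is given for them. All 7 tested were higher at any fold (39% of all genes) and 5 rose 2-fold (12.4% of all genes). Their median log2 fold change was 1.15. With total counts 6 were higher at any fold and 3 rose 2-fold. HEY1, a transcriptional repressor also raised by Notch, had 10, 3 and 0 counts untreated and 102, 89 and 79 after rhCYGB (log2 4.52, SE 0.50, edgeR adjusted p = 7.48e-07). It entered the fit only through its treated libraries, and its size rests on few untreated counts, with a log2 fold change of 6.05 without untreated library 1 and 3.95 without untreated library 3. DLX2, a homeobox factor, rose from 0.909 ± 0.382 to 5.42 ± 0.597 CPM (log2 2.59, SE 0.25, edgeR adjusted p = 1.71e-07). The homeobox gene MSX1 rose from 8.05 ± 0.538 to 19.8 ± 0.186 CPM (log2 1.30, SE 0.08, edgeR adjusted p = 7.16e-10). GATA3 and RUNX2, low in both groups, rose by 1.15 (SE 0.30, edgeR adjusted p = 0.00256) and 1.05 (SE 0.19, edgeR adjusted p = 0.000122) on the log2 scale, just past 2-fold. GATA3 was at 0.94 without rhCYGB library 1 and RUNX2 at 0.89 without untreated library 2, both under 2-fold. Among 5 tested TGF-β response genes 1 rose and 1 fell 2-fold, and at any fold 2 were higher and 3 lower, so they shared no direction. The one that fell 2-fold was CCN2, a matricellular protein, from 9.75 ± 0.760 to 4.75 ± 0.475 CPM (log2 -1.04, edgeR adjusted p = 9.11e-07). CCN2 was at -0.97 without untreated library 1 and at -0.95 without rhCYGB library 3. Of the E proteins that ID proteins bind, both tested genes were higher at any fold and neither by 2-fold, and with total counts 1 of them, TCF3, turned to the other side of 0.

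**Figure D3:**
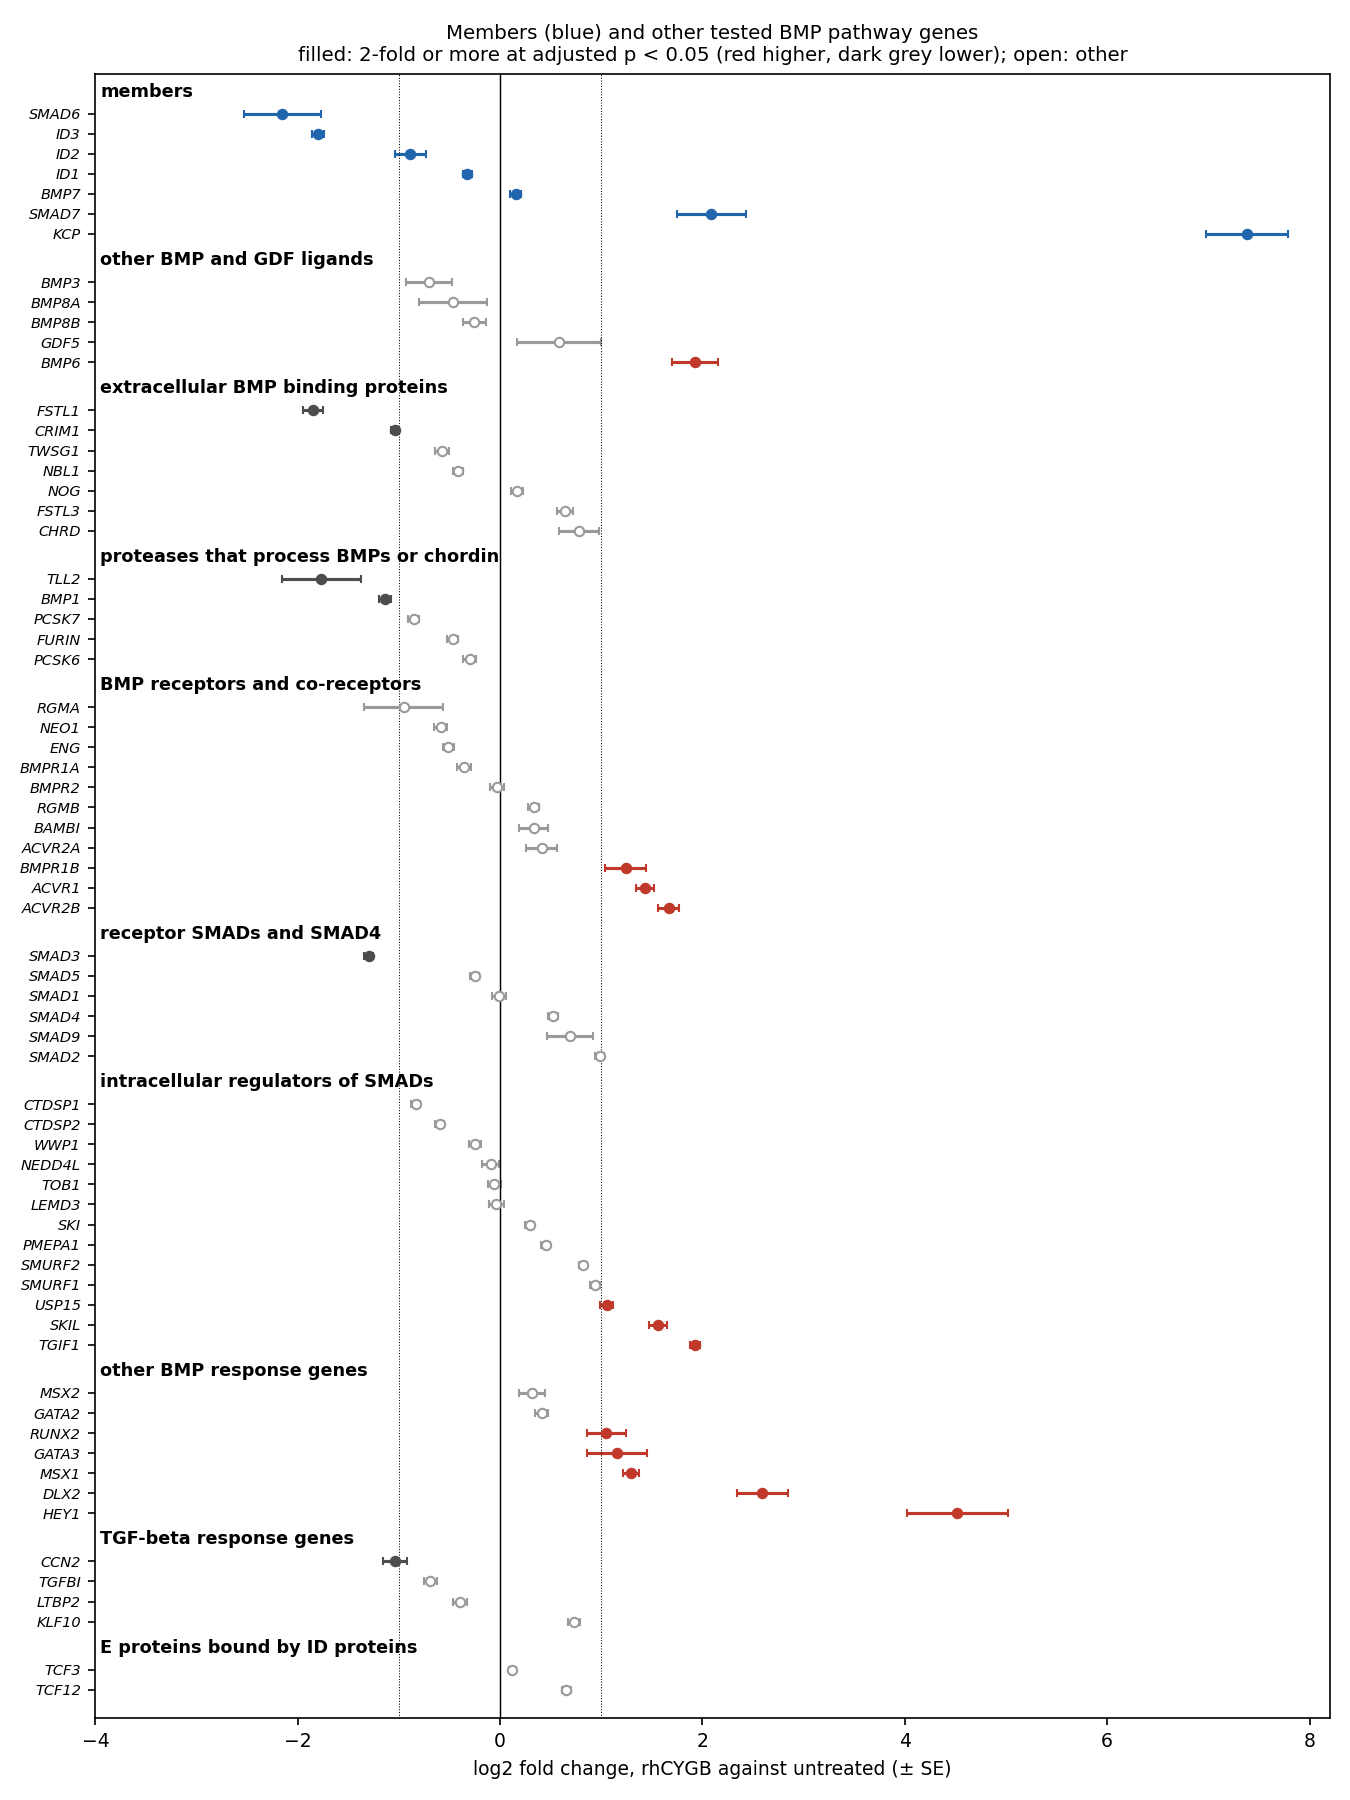
Fitted log2 fold change of rhCYGB against untreated (horizontal axis, ± SE) for the 7 tested members in blue and for other tested pathway genes by role. All members are filled whatever their change. The other genes are filled where the change was at least 2-fold at adjusted p under 0.05, red for higher and dark grey for lower. Dotted lines mark 2-fold. KCP lies at 7.38, the ID genes left of 0, and the other BMP response genes right of 0.

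The genes next to the members were looked at after the values had been seen, within 50 kb on either side, and are a description. Of 5 tested neighbours of KCP, FLNC, which encodes a filamin, went from 2.23 to 16.1 CPM (log2 2.85, SE 0.14) at a gap of 17591 bp. IRF5, an interferon regulatory factor gene at a gap of 26323 bp, went from 7.18 to 26.0 CPM (log2 1.85, SE 0.08). The nearer ATP6V1F and ATP6V1FNB were at 0.71 and -1.15, and TNPO3 was at 0.14, so the neighbours of KCP lay on both sides of 0 and all far below it. Near ID3, E2F2, a cell cycle transcription factor 26692 bp away, went from 6.77 to 0.595 CPM (log2 -3.50, SE 0.21). HM13 near ID1 and KIDINS220 near ID2 stood at 0.04 and -0.07. BMP7 overlaps BMP7-AS1 and GREM1 overlaps LOC100131315 in the table, both with 0 counts in all libraries.

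**Figure D4:**
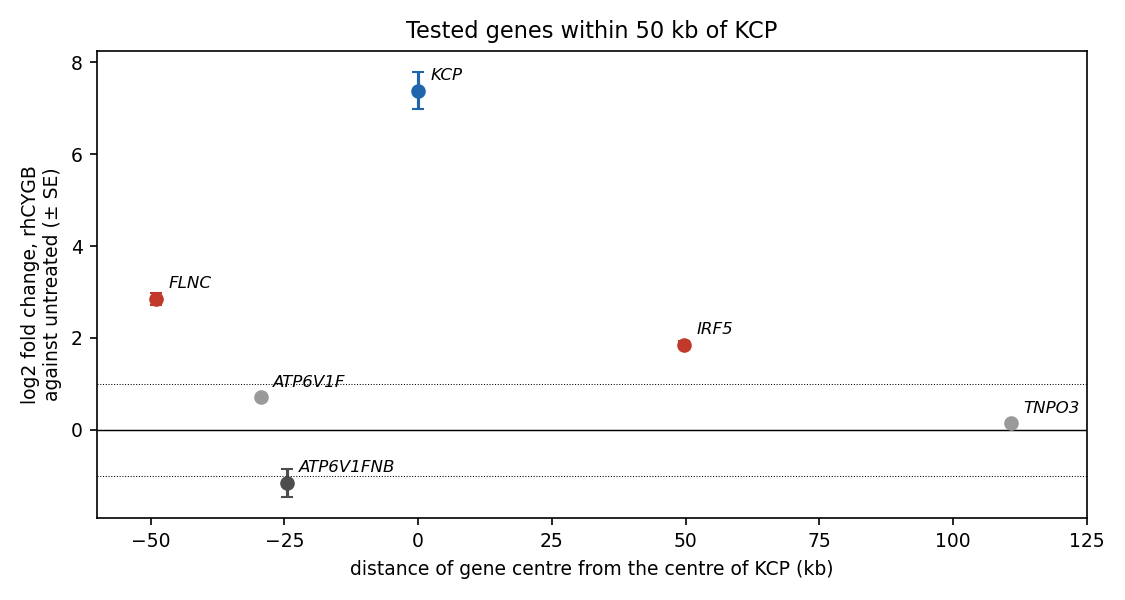
Fitted log2 fold change (vertical axis, ± SE) of KCP, in blue, and of the tested genes whose nearest end is within 50 kb of it, against the distance between gene centres in kb; red and dark grey mark neighbours past 2-fold. FLNC and IRF5, on opposite sides, are at 2.85 and 1.85 and KCP at 7.38.

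Genes whose pattern over the 6 libraries was most like that of a member were found by the Euclidean distance between log2 CPM values, each centred on its own mean, over 12761 genes. For KCP they were NGFR (distance 1.185), GADD45G (1.26) and GDF15 (1.49). NGFR, the low-affinity neurotrophin receptor gene, was at 3.64 CPM untreated and 306 CPM after rhCYGB. GDF15, a stress-induced cytokine of the TGF-β superfamily, was at 5.57 and 267 CPM. For ID3 they were IQCG (0.0729), GATM (0.138) and TNFRSF6B (0.143), for ID2 RAPGEF4 (0.141), ZNF703 (0.174) and MAGI1 (0.182), and for ID1 PPP4R3B (0.0291), FBXL19 (0.0422) and PCNT (0.0486). No other member was among the 3 nearest genes of KCP, ID1, ID2 or ID3. Their log2 fold changes lay apart, at 7.38, -0.32, -0.89 and -1.80, so nothing is read from this absence. A distance is no statement on shared control.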

How the data were processed

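RNA-seq libraries of MIA PaCa-2 cells were grouped by their labels as untreated or rhCYGB (3 each). The members and lists were chosen with earlier results of these data known.

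Libraries came from a kit that keeps strand. The submitters' processing notes name FastQC 0.11.7, HISAT2 2.1.0 and StringTie 2.1.3b. They name a mouse build although genes and positions are human, and the human build and the use of strand in counting are not given in the sources used here. The authors deposited read counts without normalization, per gene and per transcript, and FPKM values scaled to transcript length and mapped reads. The authors also deposited 6 columns of TPM values per table, scaled by transcript length and to a fixed total, which were not used.

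Of 35993 genes, 15205 had 0 counts in all libraries and 6060 were removed by filterByExpr. The other 14728 were tested with edgeR 4.0.16 in R 4.3.3 (TMM factors, glmQLFit and glmQLFTest, all 6 libraries, no block, Benjamini-Hochberg adjustment). Changed means adjusted p under 0.05 and at least 2-fold. Replicates were close (common dispersion 0.00300, coefficient of variation 5.48%), so small differences passed. The test was also run on simulated counts for 14728 genes in this comparison, at adjusted p under 0.05 with no fold threshold. It recovered 85 of 99 genes changed 2-fold and 97 of 99 changed 4-fold, and called 16 of 14528 unchanged genes. These figures do not describe the rule with the 2-fold threshold.

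Named were all members, each list gene that changed with at least 1 CPM in the higher group, all tested receptors, receptor SMADs and SMAD4, and for KCP and each ID gene the 3 nearest genes of at least 1 CPM (prior count 2). Some list genes are not reported here by name. TCF3, TLL2 and the genes next to members were named after their values were seen. Alternatives were DESeq2 1.42.0 size factors and Wald test, total counts, no filter, at least 10 counts in every library, limma 3.58.1 on log2(FPKM + 1) and log2(FPKM + 0.1), counts summed from transcripts, any fold, a replicate block and leaving out each library.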

Additional observations from a re-analysis of the deposited data

How the results depend on the processing

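The 3998 genes changed in all, and the 19 of the other pathway genes, stayed within 1.5 times under 14 of 16 alternatives each. With limma on log2(FPKM + 1) they were 1977 and 8, and without a fold threshold 11427 and 54. Leaving out 1 library gave 3982 to 4101 and 17 to 21. With a replicate block they were 3978 and 19. Same-numbered libraries did not deviate together (correlations of -0.048, 0.0072 and 0.0055), so the numbers are not read as pairs. The block ended the calls of RGMA (0.0591) and BAMBI (0.0742) and of no other pathway gene named, at an adjusted p under 0.05.

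BMP7 turned from 0.15 to -0.012 with total counts, -0.012 with log2(FPKM + 1) and -0.013 with log2(FPKM + 0.1). The median of all genes moved to -0.17 with total counts and -0.15 with log2(FPKM + 0.1). KCP ranged from 1.07 with log2(FPKM + 1) to 10.79 without untreated library 2, SMAD6 from -2.82 to -0.41 and SMAD7 from 0.39 to 2.42; adding 1 FPKM shrinks differences of genes below 1 FPKM. KCP, SMAD6, SMAD7 and HEY1 could not be fitted with at least 10 counts in every library. Of 15 alternatives, BAMBI lost its call in 13 (adjusted p up to 0.295), RGMA in 7 (0.375), ACVR2A in 6 (0.237), SMAD9 in 3 (0.0735) and RGMB in 2 (0.0859). SMAD1 passed in 3 and BMPR2 in 1 (with total counts 0.0309 and 0.0175). The cause was not tested. Depth limits BMP2, BMP4 and GREM1, at or near 0, and the isoform splits of SMAD6 and SMAD7.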
